A study of Mus musculus with 16 samples.

Results

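Mouse morulae and blastocysts from superovulated females were set against morulae and blastocysts from females in natural cycles, on 4 of the 16 arrays of the series. The 4 arrays were chosen by their stage and ovarian stimulation labels alone, and they gave 1 superovulated and 1 natural cycle array at each of the 2 stages. The whole series followed gene expression from the MII oocyte to the blastocyst over 8 stages, each stage with 1 array of either background. The other 12 arrays served here to estimate the spread and to show what the 8-cell and earlier stages looked like.

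In the superovulated group (SO beside a value), B6C3F1 females received 10 IU PMSG, which drives follicle growth, and 10 IU hCG, which triggers ovulation, 48 h apart. In the natural cycle group (NC), B6C3F1 females received no hormone. Zygotes of both groups came from mating with CD1 males, so all 4 pools shared the B6C3F1 x CD1 background, and every pool grew from the pronuclear stage in KSOM(aa), an embryo culture medium with amino acids. Morulae were lysed on day 3 with about 16 cells each and blastocysts on day 4 with about 32 cells each, with the zona pellucida in place. The labels give the same approximate cell number for superovulated and natural cycle embryos, and no count of each pool. Each array received RNA worth 20 embryos, so 1 array is 1 pool and individual embryos, their stage and their sex cannot be told apart. The labels do not say whether the pools of successive stages came from the same females or from separate collections.

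The first cell fate decision takes place between these stages. Outer cells of the morula become polarised, seal their contacts with tight junctions and desmosomes and form the trophectoderm, the epithelium that pumps fluid into the blastocoel and later implants. Inner cells form the inner cell mass, which then separates into epiblast, the founder of the fetus, and primitive endoderm, which lays down laminin-rich basement membrane. Maternal and early embryonic transcripts of the cleavage stages are lost over the same interval, so that late preimplantation expression holds rising and falling sets of genes at once.

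The blastocyst arrays carried the marks of their stage. In superovulated and natural cycle blastocysts the trophectoderm transcription factor Eomes stood at 9.85 and 12.20 on the log2 scale, the trophectoderm keratin Krt8 at 15.78 and 16.37, and the epiblast factor Nanog at 17.00 and 15.73. In morulae Eomes was at 6.21 SO and 7.35 NC, against 6.25 SO and 5.87 NC at the 8-cell stage. The keratin Krt18 was at 8.18 SO and 13.27 NC in morulae, against 6.49 SO and 7.41 NC at the 8-cell stage. The superovulated morula array stood apart from the rest by its median over all rows. This was 4.69, against 4.39 to 4.57 on the other 15 arrays. The SD of the tested rows was 2.83 on this array, within the range of the 16 arrays (2.69 to 3.02). The natural cycle morula array had the highest SD, 3.02. The silent level, below which a gene was taken as not expressed, is the 95th percentile of 1738 olfactory, vomeronasal and trace amine receptor rows on each array. It was 5.21 on the superovulated and 4.83 on the natural cycle morula array, and 4.92 and 4.77 on the superovulated and natural cycle blastocyst arrays. Across 30638 rows, the superovulated morula array had a Pearson r of 0.986 with the superovulated 8-cell array and 0.983 with the natural cycle morula array, whereas the natural cycle morula array had an r of 0.975 with the superovulated 8-cell array and 0.981 with the natural cycle 8-cell array. These r values describe 1 pair of arrays each and share probe brightness, which sets most of their size.

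Cells left over from the donor tract were looked for by their markers. Of 21 cumulus and granulosa markers, 3 were at least 2-fold higher in superovulated morulae and none in superovulated blastocysts. Cyp11a1, the first enzyme of steroid synthesis, stood at 7.29 in superovulated against 3.92 in natural cycle morulae and at 4.20 SO against 4.63 NC in blastocysts. Hsd3b1, the next steroidogenic enzyme, stood at 7.98 SO against 4.71 NC and at 5.01 SO against 4.60 NC, and Inha, an inhibin subunit, at 6.47 SO against 4.31 NC and at 4.41 SO against 3.97 NC, in morulae and then in blastocysts. All but 2 of the 21 markers had a higher signal in superovulated than in natural cycle morulae, with a median difference of 0.36. The median difference of all rows was 0.11, and 1.64% of them were at least 2-fold higher at morula. The receptor rows that set the silent level had medians of 4.09 SO and 3.77 NC in morulae, so the signal of silent genes was higher too. Among the markers, 6 exceeded the silent level on any of the 4 arrays. Those below it on all 4 arrays included Fshr (4.39, 4.04, 4.21 and 4.00 in superovulated and natural cycle morulae and superovulated and natural cycle blastocysts), Amh, Foxl2, Star and Vcan. The median level of the list was 4.59 and 4.17 in superovulated and natural cycle morulae and 4.31 and 4.20 in superovulated and natural cycle blastocysts. Its genes ran between 3.35 and 10.52 on the superovulated and 3.07 and 9.54 on the natural cycle morula array. Of 16 oviduct, blood and immune markers none was 2-fold higher in superovulated embryos, and 1 was at least 2-fold lower at morula and 1 at blastocyst. None of 15 sperm and testis markers was 2-fold higher or lower at either stage. The hybridisation controls, bacterial and phage transcripts added to the hybridisation mix, were brighter on the superovulated arrays by a mean of 0.69 at morula and 0.44 at blastocyst. The part of these markers and controls in the results below was not tested.

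The first question was which transcripts differed in the same way at both stages. The difference of the superovulated from the natural cycle array was averaged over morula and blastocyst and tested across 30638 rows with exactly 1 gene symbol in limma, with a spread taken from how far stages of 1 developmental phase disagreed. At an adjusted p below 0.05, 12 rows (0.0392%) were lower and 1 row (0.00326%) was higher in superovulated embryos, while 4368 rows had an unadjusted p below 0.05. Counted by size alone, 143 rows (0.467% of all tested rows) were at least 2-fold lower at both stages and exceeded the silent level on 1 or more arrays of each stage, and 42 rows (0.137%) were at least 2-fold higher. The split depended on scaling, with 130 lower and 53 higher rows after cyclic loess and 50 lower and 107 higher rows after centring on 10 housekeeping genes. Among the 15851 rows whose mean over the 4 arrays exceeded the mean silent level, called expressed rows from here on, these shares were 0.89% and 0.265%. The counts of 2-fold rows have no replicate check, because each stage and background has 1 array. All values are relative to the other rows of an array, so fewer cells of a type and less RNA per cell cannot be told apart, and a change in total RNA per embryo would not show.

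**Figure D1:**
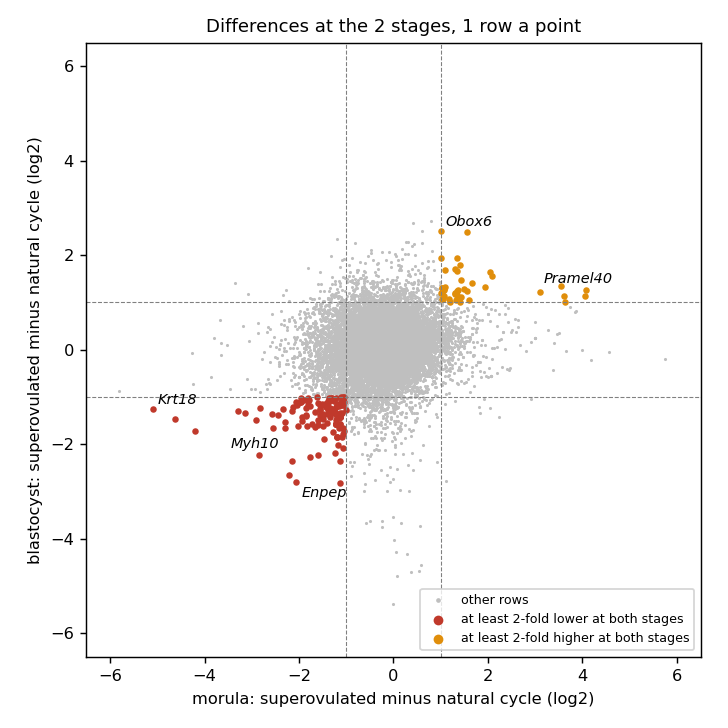
Each point is 1 expressed row, with the superovulated minus natural cycle log2 difference at morula on the x axis and at blastocyst on the y axis; dashed lines mark 2-fold. The 143 rows at least 2-fold lower at both stages (red, 141 of them expressed rows) reach far to the left, with Krt18 at -5.09, and the 42 rows at least 2-fold higher at both stages (orange) include Pramel40, at 4.07 and 1.26.

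The called rows included genes for proteins of cell shape, adhesion, the cell surface and lipid control. Myh10, the heavy chain of non-muscle myosin IIB that powers cortical contraction, had a log2 signal of 8.23 in superovulated and 11.08 in natural cycle morulae, and of 11.09 in superovulated and 13.31 in natural cycle blastocysts. Its mean difference was -2.54 ± 0.25 (SE, adjusted p = 0.0275 by limma), and its level in superovulated blastocysts was close to that in natural cycle morulae. Dsp encodes desmoplakin, which ties keratin filaments to desmosomes, and stood at 5.66 SO against 7.97 NC in morulae and at 10.29 SO against 11.82 NC in blastocysts, with a mean difference of -1.92 ± 0.22 (adjusted p = 0.0398).

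Lamc1, the gamma-1 chain shared by most laminins, was at 5.50 in superovulated against 7.72 in natural cycle morulae and at 7.87 SO against 10.52 NC in blastocysts. The mean difference was -2.44 ± 0.28 (adjusted p = 0.0398). Enpep, a glutamyl aminopeptidase of the cell surface, was below the silent level at the 8-cell stage (4.23 SO and 3.94 NC). It reached 6.45 SO against 8.51 NC in morulae and 10.82 SO against 13.63 NC in blastocysts. Its mean difference was -2.43 ± 0.19 (adjusted p = 0.0114). Its superovulated blastocyst level lay between the natural cycle morula and blastocyst levels.

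Srebf2, the transcription factor that switches on cholesterol synthesis and uptake when sterols are scarce, was at 5.19 SO against 6.94 NC in morulae. The superovulated value was just below the silent level of its array (5.21), so it counts as not expressed there. At the 8-cell stage Srebf2 was at 5.19 SO and 5.20 NC, with silent levels of 4.90 and 4.94. In blastocysts it was at 8.72 SO against 10.99 NC, and the mean difference was -2.02 ± 0.21 (adjusted p = 0.0275). The other named genes that fell were Prrg4, a transmembrane protein with a Gla domain (-1.92 ± 0.22), Glipr1 (-1.45 ± 0.15), the lipid transporter Abca3 (-1.41 ± 0.18) and the phospholipase Plb1 (-0.99 ± 0.12). The single row that was higher belonged to Defb46, a beta-defensin gene, with 7.19 SO against 5.90 NC in morulae and 6.40 SO against 5.21 NC in blastocysts (1.24 ± 0.15, adjusted p = 0.0398). The remaining called rows were the snRNA gene Gm26497, the snoRNA gene Gm23608 and the miRNA gene Mir34a.

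**Figure D2:**
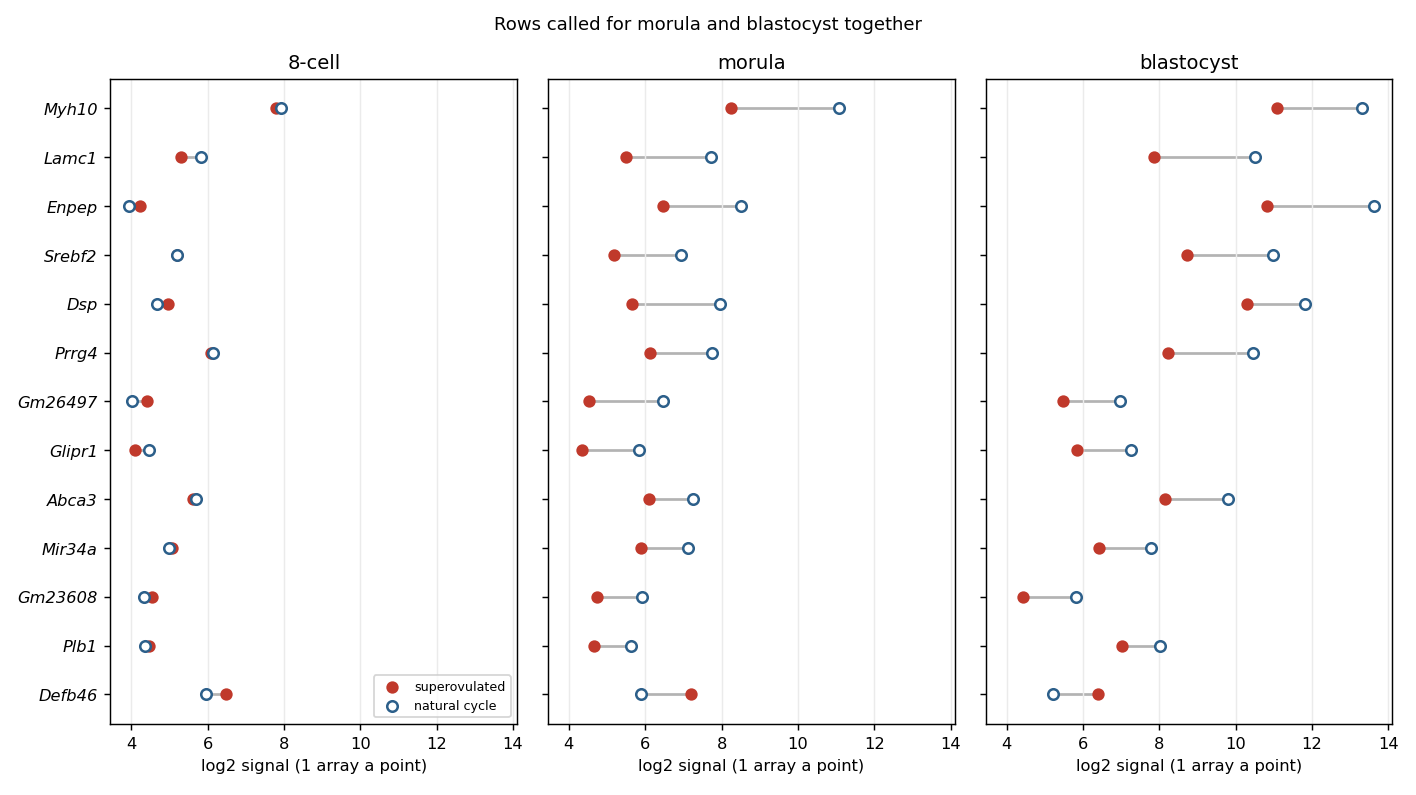
Log2 signal of the 13 called rows at the 8-cell, morula and blastocyst stages, 1 array a point, superovulated filled red and natural cycle open blue. At the 8-cell stage the points of a gene lie close together, and at morula and blastocyst the superovulated point lies to the left for 12 rows and to the right for Defb46.

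Whether these differences belonged to morula and blastocyst more than to earlier stages was tested in the same fit, as the late difference minus the mean difference of the earlier stages, taken in 2 phases (MII through early 2-cell, and late 2-cell through 8-cell). Of 30638 rows 2 (0.00653%) passed, both lower, and 3839 had an unadjusted p below 0.05. They were Enpep (-2.69 ± 0.22, adjusted p = 0.0169) and Srebf2 (-2.36 ± 0.24, adjusted p = 0.0494). At the 8-cell stage Enpep was below the silent levels of 4.90 SO and 4.94 NC, and Srebf2 was little above them. A gene that is not expressed can show little difference. For such genes the contrast cannot separate a difference particular to late stages from expression that began late. For Myh10 the contrast was -2.27 ± 0.29 (adjusted p = 0.0855), for Dsp -2.07 ± 0.25 (adjusted p = 0.085) and for Lamc1 -2.29 ± 0.32 (adjusted p = 0.0855), so these and the other called rows were not separated from the earlier stages at the threshold. Without any 1 of the 6 earlier stage pairs no row passed this test, and without the morula or the blastocyst pair 75 and 45 rows did, Enpep and Srebf2 among them.

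The calls rested on few arrays. Without the morula pair, which removes the superovulated morula array, 90 rows were called from the blastocyst pair and 6 of the 13 were among them, and without the blastocyst pair 105 rows were called, again with 6 of the 13. Without the MII, the 1-cell or the early 2-cell pair no row was called, without the 4-cell pair 1, without the 8-cell pair 5 and without the late 2-cell pair 8, although no difference of a called row changed its sign under any alternative.

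Mir34a is shown with the other miRNA genes that were at least 2-fold lower at both stages, because the seed, bases 2 to 8 of the mature strand, sets which messages a miRNA pairs with. Of 28 such miRNA genes, 4 had a mature sequence in the RefSeq table (GRCm38.p6), printed 5′ to 3′ with the seed in capitals. Mir34a lies on chromosome 4, with its 5p strand at chr4:150068473-150068494 on the plus strand. Mir1950 lies at chr19:34965402-34965423 on the plus strand, and Mir465 and Mir465d lie on the minus strand of chromosome X, with 5p strands at chrX:66839099-66839121 and chrX:66822691-66822713.
mmu-miR-34a-5p: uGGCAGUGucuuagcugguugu
mmu-miR-34a-3p: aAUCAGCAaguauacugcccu
mmu-miR-1950: uCUGCAUCuaaggauaugguca
mmu-miR-465a-5p: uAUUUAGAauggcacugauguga
mmu-miR-465d-5p: uAUUUAGAaugguacugauguga
The 5p strands of Mir465 and Mir465d share the seed AUUUAGA, and the others have seeds of their own.

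The array rows are annotated to the miRNA genes, and they do not tell a precursor from its mature strands. Mir34a, a textbook target of p53, had a log2 signal of 5.89 in superovulated and 7.11 in natural cycle morulae and of 6.43 and 7.79 in superovulated and natural cycle blastocysts, a mean difference of -1.29 ± 0.15 (adjusted p = 0.0398). At the 8-cell stage it was at 5.05 SO and 5.00 NC. Mir465 was at 5.05 SO against 7.35 NC in morulae and 4.94 SO against 6.60 NC in blastocysts, and Mir465d at 9.11 SO against 10.38 NC and at 7.70 SO against 8.74 NC, but with near-identical sequences the loci cannot be told apart. Mir1950 was at 7.81 SO against 9.76 NC and at 7.68 SO against 9.09 NC. Its 8-cell level was already lower in superovulated embryos (7.19 SO against 10.05 NC), as was that of Mir465 (5.74 SO against 7.01 NC), and none of these 3 passed the test.

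A larger block of miRNA rows belonged to the Mir466, Mir467, Mir669 and Mir297 families of chromosome 2, a repeated cluster within an intron of Sfmbt2, which is imprinted and expressed from the paternal allele in extraembryonic tissue. Of 77 rows of these families on that chromosome, 24 were at least 2-fold lower at both stages and none was higher at both. These 24 rows held only 7 distinct sets of values, as near-identical copies can share probes, and so they are not 24 measurements. All 77 rows held 55 distinct sets. The Mir467a-3 row, for example, was at 5.92 SO against 7.12 NC in morulae and at 8.66 SO against 10.50 NC in blastocysts. The host gene Sfmbt2, which encodes a Polycomb-related protein, was at 5.34 in superovulated against 7.10 in natural cycle morulae and at 8.59 SO against 9.78 NC in blastocysts. Over all 77 rows the median difference was -0.03 at morula and -0.75 at blastocyst. At morula 26 rows were at least 2-fold lower and 7 higher, and at blastocyst 30 were lower and none higher. None of the cluster rows was called.

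The rows 2-fold lower at both stages comprised 76 protein-coding, 29 miRNA and 22 snRNA rows and 16 of other kinds, and the 42 higher ones 22 protein-coding and 10 pseudogene rows among others. To read the lists below, the share of all rows that was at least 2-fold lower was 5.39% at morula and 1.9% at blastocyst, and the share at least 2-fold higher was 1.64% and 1.94%. Among expressed rows the shares were 10.2% and 3.41% lower and 2.9% and 3.67% higher. The median difference of expressed rows was -0.15 at morula and 0.08 at blastocyst. Of the 46 gene lists, those of the blastocyst lineages, lipids, stress, protein turnover and nutrient supply are described, with the reference lists. They were chosen with earlier results of these data known, and no list was tested.

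Trophectoderm genes were lower in superovulated embryos mostly at the blastocyst stage. Of 31 tested, 8 were at least 2-fold lower and 1 higher at morula, and 12 were lower and none higher at blastocyst, with 6 lower at both. The median of the list was -0.07 at morula and -0.66 at blastocyst. At morula the median was -0.20 after cyclic loess scaling and 0.57 after centring on housekeeping genes, so its sign did not hold there. The morula median of all rows was 0.11 as deposited, 0.02 after cyclic loess and 0.76 after housekeeping centring. The list lay below these medians, but as deposited it lay above the -0.15 of expressed rows. At blastocyst the list median was -0.76 after cyclic loess and -0.79 after housekeeping centring.

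The 6 genes lower at both stages were Krt18, Fabp3, Id2, Klf6, Eomes and Dppa1. Krt18, the keratin partner of Krt8 in the first epithelium, was at 8.18 in superovulated and 13.27 in natural cycle morulae and at 15.74 and 17.00 in superovulated and natural cycle blastocysts. Eomes, a T-box factor needed for trophoblast development, was at 6.21 SO against 7.35 NC in morulae and at 9.85 SO against 12.20 NC in blastocysts. Id2, an inhibitor of helix-loop-helix factors and an early trophectoderm marker, was at 5.76 SO against 8.33 NC and at 11.89 SO against 13.26 NC. None of these passed the test (adjusted p of 0.151, 0.0857 and 0.117 in limma).

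Cdx2, the factor that sets trophectoderm fate, was at 6.82 SO against 8.13 NC in morulae and differed by -0.99, just short of 2-fold, in blastocysts, where the natural cycle level was 12.99. It had a mean difference of -1.15 ± 0.19 (adjusted p = 0.0899 by limma). Hand1, a later trophoblast factor, ran the other way, at 7.87 SO against 5.87 NC in morulae and at 5.11 SO against 4.35 NC in blastocysts.

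Among 29 genes of cell junctions and cavitation, 7 were at least 2-fold lower and 1 higher in superovulated morulae, and 11 were lower and none higher in blastocysts. The list median was -0.58 at morula and -0.70 at blastocyst, with -0.31 and -0.77 after cyclic loess. After housekeeping centring it was 0.06 and -0.83, which flips the sign at morula, where the median of all rows was then 0.76. Those lower at both stages were Dsp, which was called, and Ctnna1 and Atp1b1, which were not. Ctnna1, the alpha-catenin that joins cadherins to actin, was at 8.50 SO against 9.81 NC and at 9.75 SO against 11.01 NC. Atp1b1, a subunit of the sodium pump that drives fluid into the blastocoel, was at 9.01 SO against 10.27 NC in morulae and at 12.06 SO against 13.40 NC in blastocysts. The adhesion molecule Cdh1 was at 13.45 SO against 13.97 NC and at 14.37 SO against 15.41 NC.

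Primitive endoderm genes were described by 28 tested rows, of which 4 were at least 2-fold lower at morula, 9 were lower and 1 higher at blastocyst, and 2 (Lamc1 and Cubn) were lower at both. Cubn, an endocytic receptor, was at 6.81 SO against 8.65 NC and at 9.25 SO against 10.86 NC. A lower signal in superovulated blastocysts was seen for 21 of the 28 rows, against 6784 of the 15851 expressed rows and 12100 of all 30638. The extracellular matrix genes named next are among the 21 and do not stand for the whole list. Lama1 was at 4.97 in superovulated and 9.53 in natural cycle blastocysts, and Lamb1 at 9.43 SO and 10.67 NC. Sparc was at 7.15 SO and 9.52 NC and the collagen chaperone Serpinh1 at 5.35 SO and 7.57 NC. In morulae Lama1 was at 5.08 SO and 4.50 NC, at or below the silent level. The list median was 0.05 at morula and -0.42 at blastocyst, with -0.47 after cyclic loess and -0.55 after housekeeping centring at the second stage.

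Cholesterol genes had the lowest median of the 46 lists at morula and were low at blastocyst as well. Of 20 tested members, 9 were at least 2-fold lower in superovulated morulae and 6 in superovulated blastocysts, 4 of them at both stages, and none was 2-fold higher at either. The median difference was -0.93 at morula and -0.68 at blastocyst, and it stayed below 0 after cyclic loess (-0.64 and -0.83) and housekeeping centring (-0.29 and -0.81).

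Besides Srebf2, the 4 were Hmgcs1, which makes HMG-CoA at the start of the mevalonate pathway, and Cyp51 and Nsdhl, which demethylate sterol precursors near its end. Hmgcs1 was at 8.27 in superovulated against 10.24 in natural cycle morulae and at 9.36 SO against 10.47 NC in blastocysts. Cyp51 differed by -1.49 in morulae and -1.48 in blastocysts, and Nsdhl was at 6.74 SO against 8.08 NC and at 9.32 SO against 10.74 NC. Of the 4, only Srebf2 passed the test. Sqle, the squalene epoxidase, was at 9.58 SO against 11.21 NC in blastocysts and at 9.59 SO against 10.46 NC in morulae.

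Among fatty acid and lipid droplet genes, 9 of 25 were at least 2-fold lower in morulae and 3 in blastocysts, with medians of -0.77 and -0.27 as deposited. After cyclic loess the medians were -0.40 and -0.37, and after housekeeping centring -0.13 and -0.41, so the order of the stages depended on scaling. Scd1, the desaturase that makes monounsaturated fatty acids, was at 10.37 SO against 12.39 NC in morulae and at 13.42 SO against 15.03 NC in blastocysts. Fads1, a delta-5 desaturase, was at 6.85 SO against 7.94 NC and at 7.80 SO against 8.97 NC.

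Several of the genes higher at both stages declined between morula and blastocyst on the arrays of either background. Obox6, a homeobox gene, was at 14.81 SO against 13.81 NC in morulae and at 9.59 SO against 7.07 NC in blastocysts. In MII oocytes it was at 4.6 SO and 4.0 NC, below the silent level. The lipase Abhd6 was at 13.60 SO against 11.55 NC and at 10.09 SO against 8.45 NC, and Arg1, the arginase of the urea cycle, at 11.32 SO against 9.92 NC and at 6.95 SO against 5.15 NC. The cyclin gene Ccne1 was at 14.36 SO against 13.29 NC and at 13.13 SO against 11.85 NC.

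The widest of these differences at morula were in the Prame-like genes Pramel40 (10.28 SO against 6.21 NC, then 6.15 SO against 4.89 NC in blastocysts) and Pramel44 (9.82 SO against 5.77 NC, then 5.72 SO against 4.58 NC). These belong to a multigene family, so their probes may share signal. Except for Defb46 none of the 42 rows passed the test. Of 39 oocyte genes 6 were at least 2-fold higher and none lower in superovulated morulae and 3 were higher in blastocysts, with medians of 0.21 and 0.27, and Zar1l was higher at both (7.50 SO against 6.14 NC, and 6.43 SO against 5.27 NC). Of 23 genes of 2-cell activation, 5 were higher and none lower at morula, led by Zscan4f (8.36 SO against 5.93 NC) and Zscan4c (8.41 SO against 6.14 NC), near copies of each other that cannot be told apart.

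**Figure D3:**
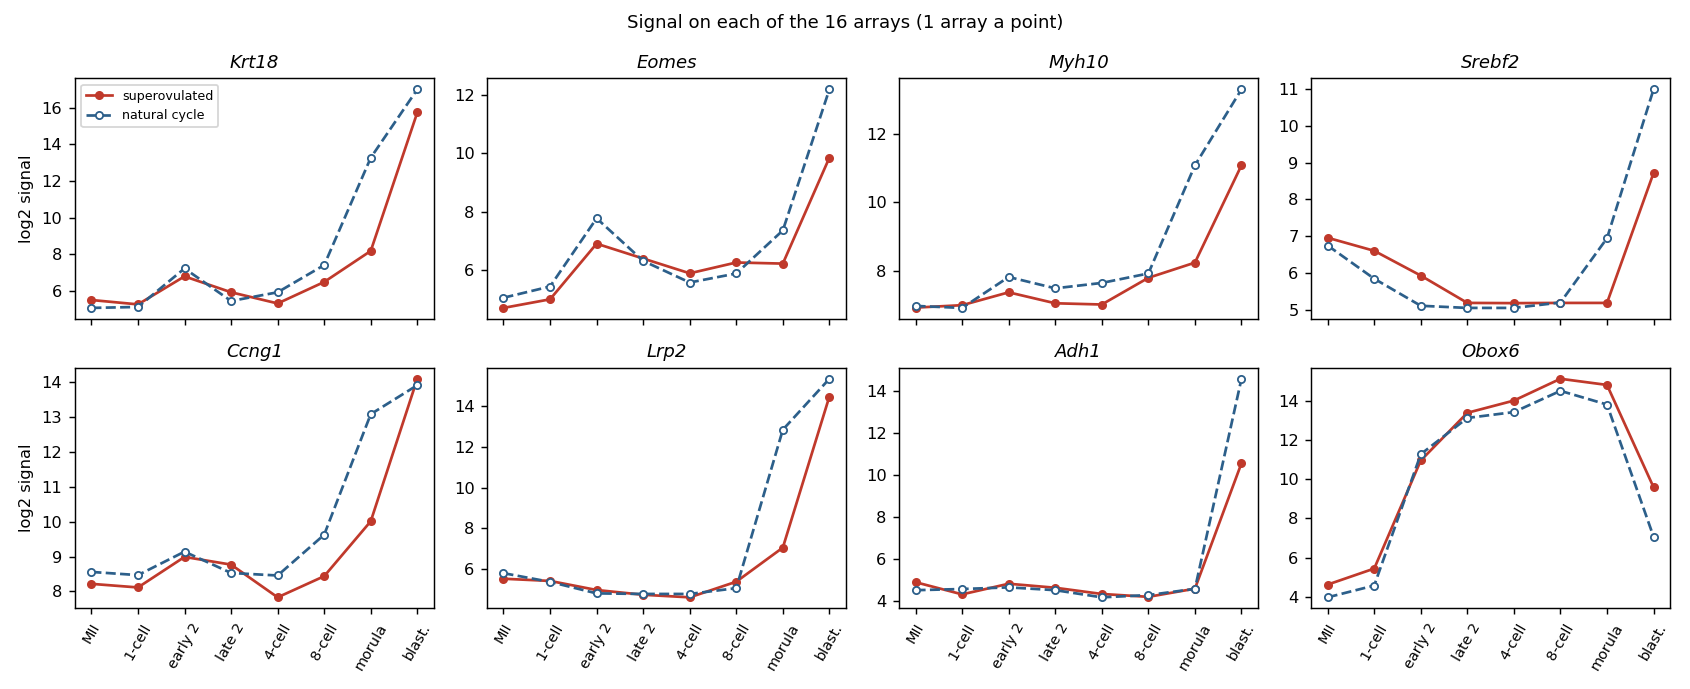
Log2 signal of 8 genes on all 16 arrays, by stage from MII oocyte to blastocyst, superovulated in solid red and natural cycle in dashed blue. Krt18, Eomes, Myh10 and Srebf2 are lower on the superovulated arrays at morula and blastocyst, Ccng1 and Lrp2 differ chiefly at morula, Adh1 differs at blastocyst, and Obox6 is higher on the superovulated arrays at both.

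The next question was which differences belonged to 1 stage. The blastocyst difference minus the morula difference was tested in limma, and 26 rows (0.0849%) passed with a lower and 9 rows (0.0294%) with a higher difference at blastocyst, with 3311 rows at an unadjusted p below 0.05. The 35 calls became 18 without the 4-cell pair, 19 without the 1-cell pair, 21 without the MII pair and 23 without the early 2-cell pair. By size alone, 938 rows (3.06%) were at least 2-fold lower and 324 (1.06%) at least 2-fold higher in superovulated morulae only, that is with under 0.5 log2 at blastocyst. In blastocysts only, 274 rows (0.894%) were lower and 296 (0.966%) higher. The split at morula depended on scaling, with 533 lower and 596 higher rows after cyclic loess and 184 lower and 2113 higher rows after housekeeping centring, and at blastocyst the split was 379 lower and 177 higher after cyclic loess and 407 lower and 140 higher after housekeeping centring. The median morula difference of all rows was 0.11 as deposited, 0.02 after cyclic loess and 0.76 after housekeeping centring.

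Genes lower at morula alone that passed this test were Serpinb9b, Serpinb6c, Trp53bp2 and Magea8. Morula and blastocyst were fitted singly in this test, so its spread came only from the earlier stage pairs. The spread between morula pools was not measured. The standard errors and adjusted p-values of this test, those of Lrp2 and Rhox5 included, therefore do not include it. Serpinb9b, a serine protease inhibitor gene, was at 6.72 in superovulated against 10.53 in natural cycle morulae and at 11.56 SO against 11.30 NC in blastocysts (4.06 ± 0.31, adjusted p = 0.00884). Serpinb6c, of the same multigene family, whose copies may share probes, was at 5.68 SO against 9.21 NC and at 10.73 SO against 10.63 NC (3.64 ± 0.31). Trp53bp2, whose product ASPP2 binds p53 and polarity proteins, was at 6.75 SO against 10.39 NC and at 11.29 SO against 11.16 NC (3.78 ± 0.44, adjusted p = 0.0325). Magea8 was at 7.62 SO against 10.27 NC in morulae and at 10.52 SO against 10.03 NC in blastocysts. For Serpinb9b, Serpinb6c and Trp53bp2, superovulated embryos were near the natural cycle level by the blastocyst stage.

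Lrp2, the endocytic receptor megalin, had the widest morula difference of any expressed row, 7.04 SO against 12.85 NC. In blastocysts it was at 14.48 SO against 15.36 NC, which left its change in difference at 4.93 ± 0.40 (adjusted p = 0.00884). Rhox5, an X-linked homeobox gene of the placenta, was the called gene with 2-fold differences of opposite sign, at 9.00 SO against 11.35 NC in morulae and at 9.94 SO against 8.77 NC in blastocysts (3.52 ± 0.41, adjusted p = 0.0335).

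The next list held targets of p53, the tumour suppressor that answers to DNA damage and other stress. Of 25 tested, 11 were at least 2-fold lower and none higher in superovulated morulae, against 2 lower and 1 higher in blastocysts, and 7 of the 11 were lower at morula only. The median difference was -0.75 at morula and 0.02 at blastocyst, with -0.46 and -0.04 after cyclic loess and -0.10 and -0.11 after housekeeping centring, where the medians of the stages were alike.

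Eda2r, a TNF receptor family member, was at 5.82 in superovulated against 10.08 in natural cycle morulae and at 7.55 SO against 7.62 NC in blastocysts. Ccng1, cyclin G1, was at 10.01 SO against 13.08 NC and at 14.09 SO against 13.90 NC, and Cdkn1a, the cell cycle inhibitor p21, at 12.02 SO against 13.58 NC and at 13.37 SO against 13.08 NC. Mdm2, the ubiquitin ligase that degrades p53, was at 8.50 SO against 9.78 NC and then at 8.89 on both blastocyst arrays. Pmaip1, which encodes the death factor Noxa, was lower at both stages (5.15 SO against 7.19 NC, and 5.90 SO against 7.07 NC), like Mir34a.

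Some of these differences were present before the morula stage. At the 8-cell stage Fas was at 5.84 SO against 7.47 NC and Ccng1 at 8.44 SO against 9.62 NC. None of the 25 genes of the list, which does not hold Mir34a, was called in either test, and for Eda2r the change between stages had an adjusted p of 0.0543 by limma.

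Proteasome genes were lower in superovulated morulae and higher in superovulated blastocysts. Of 30 tested, 10 were at least 2-fold lower at morula and none higher, and 2 were higher at blastocyst and none lower. The median was -0.82 at morula and 0.61 at blastocyst, with -0.56 and 0.40 after cyclic loess and -0.18 and 0.48 after housekeeping centring. Psmd6, a subunit of the regulatory cap, was 2-fold different in opposite directions (12.79 SO against 13.83 NC, then 13.37 SO against 12.33 NC), and Psmc5, an ATPase of the cap, was at 14.11 SO against 15.50 NC and at 14.48 SO against 13.71 NC.

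Heat shock and ribosome biogenesis genes had medians of the same signs as deposited. Of 24 heat shock and chaperone genes, 7 were 2-fold lower at morula and 1 was higher at blastocyst (medians -0.58 and 0.22), and of 34 ribosome biogenesis genes 6 were lower at morula and 2 higher at blastocyst (medians -0.35 and 0.49). After housekeeping centring the morula medians turned to 0.06 and 0.29, so neither list kept its sign there. The morula median of all rows was 0.76 after that centring, above both.

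Over all rows, 65 (0.212%) were at least 2-fold lower at morula and at least 2-fold higher at blastocyst, and 9 (0.0294%) the reverse, and of these only Rhox5 passed the test. Housekeeping genes themselves were not level at morula, where the median difference of 10 was -0.69 and Polr2a was at 11.03 SO against 12.37 NC. At blastocyst their median was 0.04.

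At blastocyst alone, the called differences of the named genes were mostly in genes near the silent level at morula. With morula and blastocyst fitted singly, the spread for this test came only from the 6 earlier stage pairs. Adh1, for example, lay between 4.2 and 4.9 on those arrays. The spread between blastocyst pools was not measured, so the standard errors and adjusted p-values below do not include it. Nxf7, of the family of mRNA export factors, was at 5.98 in superovulated against 10.68 in natural cycle blastocysts, and at 4.99 SO against 4.62 NC in morulae (-5.07 ± 0.31, adjusted p = 0.00553). Adh1, an alcohol dehydrogenase that also oxidises retinol, was at 10.57 SO against 14.59 NC in blastocysts and at 4.60 SO against 4.59 NC in morulae (-4.03 ± 0.36). Slc15a2, a proton-coupled peptide transporter, was at 6.60 SO against 10.87 NC in blastocysts and at 4.35 SO against 4.30 NC in morulae (-4.32 ± 0.34).

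Lcp1, the actin bundler L-plastin, was at 8.20 SO against 11.73 NC in blastocysts and at 5.84 SO against 5.85 NC in morulae (-3.52 ± 0.34, adjusted p = 0.0117). Gulp1, an adaptor of engulfment, was at 5.36 SO against 9.12 NC (-3.52 ± 0.31) and Myof, a membrane repair protein, at 5.02 SO against 8.02 NC (-3.32 ± 0.33), each with morula levels between 4.23 and 5.07. Superovulated blastocysts thus held these genes between their morula level and the natural cycle blastocyst level. Chosen after their values were seen, the stress-inducible Ndrg1 was at 8.71 SO against 13.39 NC in blastocysts and 6.23 SO against 5.69 NC in morulae, and the clone-named BC051665, with the lowest value of the contrast (-5.36 ± 0.39), was at 4.29 SO against 9.67 NC and at 5.36 SO against 5.38 NC.

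**Figure D4:**
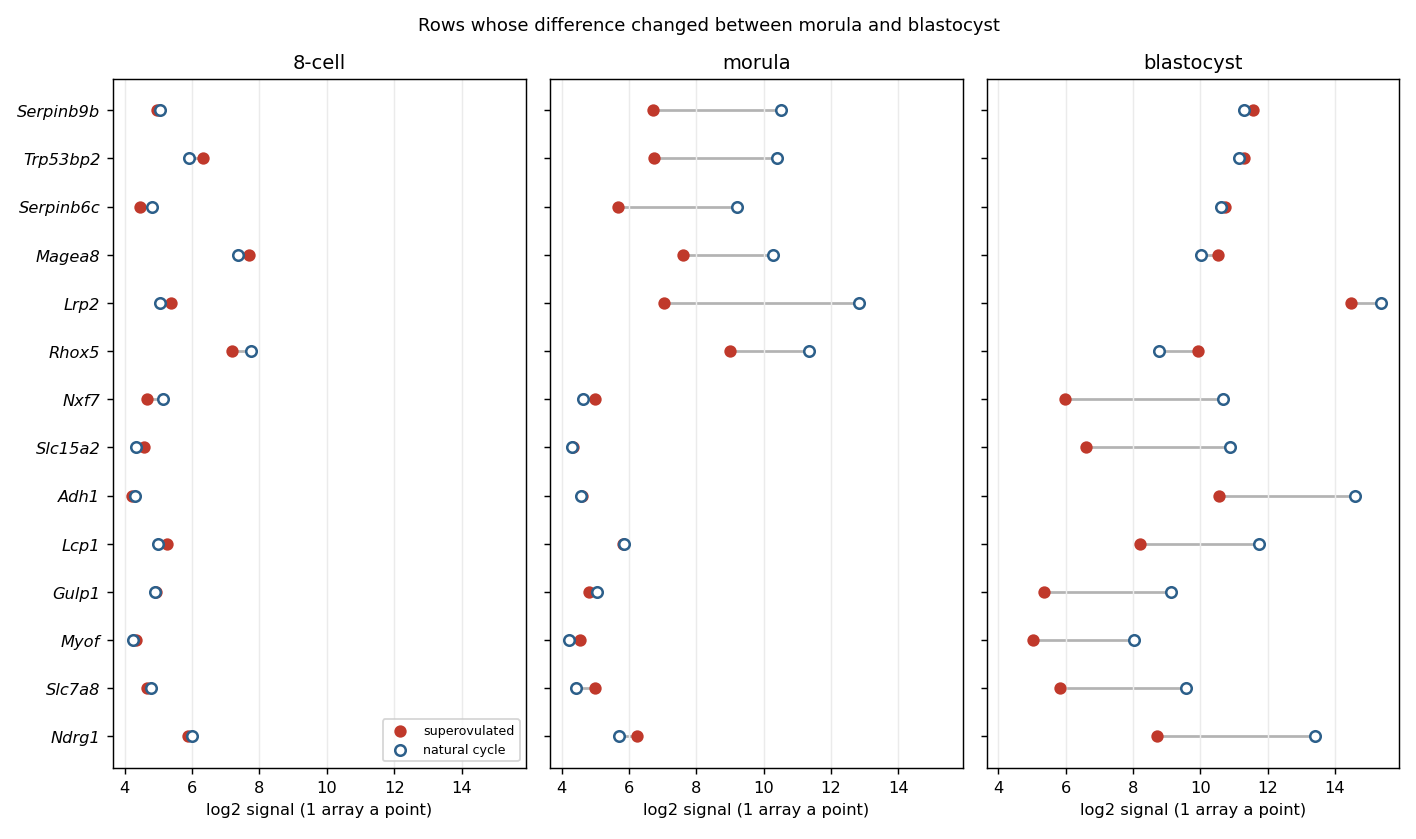
Log2 signal at the 8-cell, morula and blastocyst stages of 14 rows whose difference changed between morula and blastocyst, 1 array a point, superovulated filled red and natural cycle open blue. The upper 6 genes, from Serpinb9b to Rhox5, are lower on the superovulated morula array and the lower 8, from Nxf7 to Ndrg1, on the superovulated blastocyst array.

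Transporters of amino acids were among the lists lower at blastocyst. Of 23 genes, 8 were at least 2-fold lower in superovulated blastocysts and none higher, against 3 lower in morulae, with a median of -0.81 at blastocyst and -0.10 at morula. The blastocyst median was -0.87 after cyclic loess and -0.94 after housekeeping centring. Slc7a8, a carrier of neutral amino acids, was at 5.84 SO against 9.58 NC and was called for the change between stages (-4.30 ± 0.43, adjusted p = 0.0147).

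Slc7a1, the cationic amino acid carrier, was at 7.43 SO against 9.44 NC, and Slc38a2, a sodium-coupled carrier, at 5.38 SO against 7.25 NC in blastocysts. Slc6a14 and the imprinted Slc38a4 were lower at both stages (5.58 SO against 8.50 NC and 6.55 SO against 8.04 NC, and 7.35 SO against 10.18 NC and 12.16 SO against 13.39 NC). Of 29 genes of amino acid synthesis and the integrated stress response, 6 were 2-fold lower at blastocyst and 2 higher, among them Asns, asparagine synthetase, at 8.03 SO against 10.88 NC, and Aldh18a1, of proline synthesis, at 5.29 SO against 7.85 NC, which was called for the change between stages (-2.96 ± 0.30).

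In LIF signalling, the cytokine pathway that supports pluripotency and implantation, 4 of 12 genes were at least 2-fold lower in superovulated blastocysts and none in morulae. The 4 were the ligand Lif (4.85 SO against 6.03 NC), the receptors Lifr (4.60 SO against 6.24 NC) and Il6st, and Stat3. Il6st (gp130) was at 7.26 SO against 8.68 NC and Stat3 at 10.65 SO against 11.89 NC. The list median was -0.39 at blastocyst, where 8 of the 12 genes had a lower signal in superovulated embryos. Lif and Lifr were below the silent level on the superovulated array, and none of the 4 passed a test. The imprinted gene Peg10, needed for placental development, was at 5.09 SO against 8.76 NC in blastocysts and at 4.57 SO against 4.42 NC in morulae, with an adjusted p of 0.0501 for the change between stages in limma.

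Epiblast genes did not share a direction. Of the 12 panel genes of the study, 3 were at least 2-fold lower and 1 higher in superovulated morulae, and 1 was higher and 1 lower in blastocysts, with medians of -0.04 and -0.02. Nanog was at 12.82 in superovulated against 15.08 in natural cycle morulae and at 17.00 SO against 15.73 NC in blastocysts. Pou5f1 was at 11.17 SO against 12.24 NC and at 11.54 SO against 11.23 NC, and Sox2 was at 9.00 on both blastocyst arrays. Tdgf1, the Nodal co-receptor Cripto, was at 8.72 SO against 10.41 NC in blastocysts, and Cops3 differed by 0.15 in morulae and -0.04 in blastocysts. None of the panel was called in either test.

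**Figure D5:**
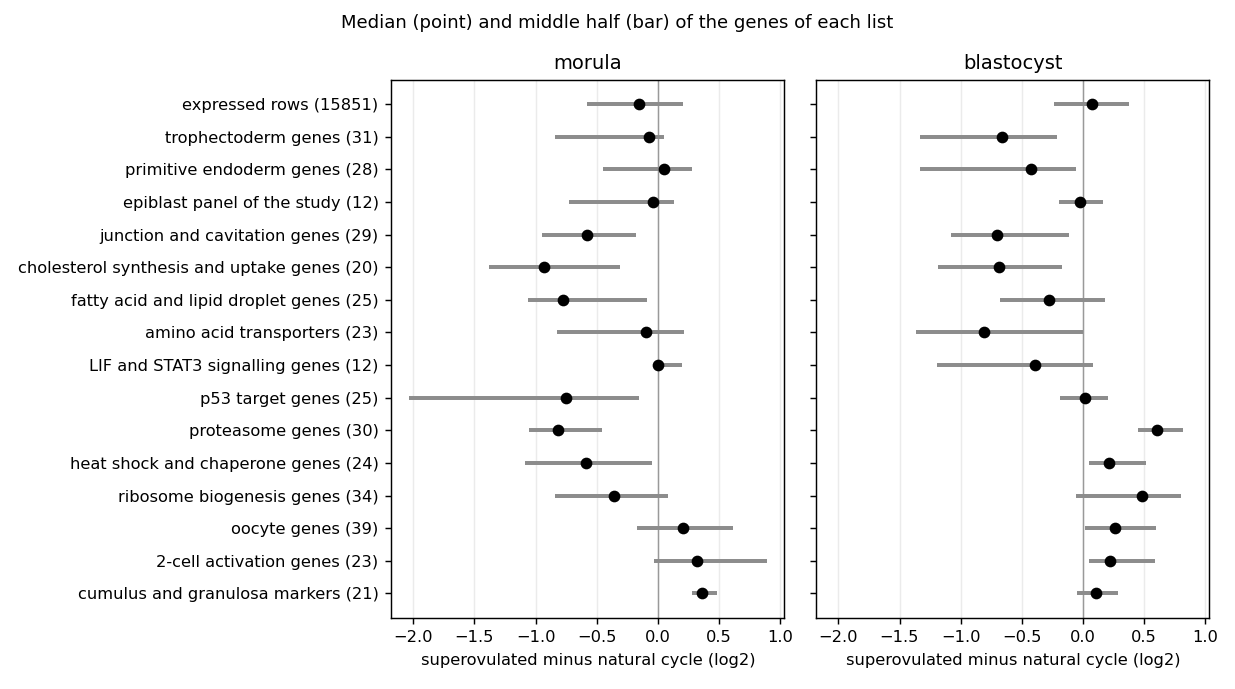
Superovulated minus natural cycle log2 difference at morula (left) and blastocyst (right) for expressed rows and 15 gene lists, on the values as deposited, as the median (point) and interquartile range (bar) of the genes, with the number tested in brackets. Cholesterol and junction genes (the junction median at morula is 0.06 after housekeeping centring) lie below 0 at both stages, p53 targets at morula, trophectoderm genes, primitive endoderm genes and amino acid transporters mainly at blastocyst, and proteasome genes change sign.

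The differences were also placed in the course of development, using arrays that had not given the difference. Of 1651 rows at least 2-fold lower in superovulated morulae, 686 (41.6%) were at least 2-fold higher in the blastocyst than in the 8-cell arrays and 201 (12.2%) at least 2-fold lower, whereas among expressed rows these shares were 17.7% and 16.6%. Of 502 rows at least 2-fold higher in superovulated morulae, 44 (8.76%) were higher and 160 (31.9%) lower in the blastocyst than in the 8-cell arrays. Of 582 rows lower in superovulated blastocysts, 64 (11%) were at least 2-fold higher and 40 (6.87%) at least 2-fold lower in the morula than in the 8-cell arrays, against 4.16% and 4.87% of expressed rows. Of 594 rows higher in superovulated blastocysts, 48 (8.08%) were higher and 32 (5.39%) lower. This comparison was chosen after the data were seen and has no test.

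Set beside the other stages, the morula pair was second in the share of rows that differed at least 2-fold among rows above the silent level, with 13.1%, behind the 1-cell pair with 13.5%. The blastocyst pair had 6.98%, and the remaining 5 stages lay between 4.02% at MII and 8.41% at 8-cell. Of 8 Y-linked genes 1 was 2-fold higher in superovulated morulae and none differed by 2-fold in blastocysts. Xist, which coats the inactive X chromosome of female embryos, was at 14.11 SO against 15.64 NC in morulae and at 13.55 SO against 14.32 NC in blastocysts, so that the sex make-up of the pools cannot be told apart from stimulation.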

How the data were processed

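Embryo RNA was amplified with the GeneChip WT Pico kit and hybridised to Affymetrix whole-transcript arrays. The values deposited by the authors are log2 signals, made with Affymetrix Expression Console per the submitters' processing notes. Background correction, version and genome build are not given in the sources used here. The median over all rows was 4.69 on the superovulated morula array and between 4.39 and 4.57 on the others. A value has meaning only relative to the rest of its array. The table held 72688 rows and 16 columns. The 30638 rows with exactly 1 gene symbol were tested. Several symbols were found for 2176 rows and none for 39688, and 186 control rows were left out. In all 330 symbols were updated through RefSeq (GRCm38.p6), which was used for names and miRNA sequences only.

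Rows were fitted in limma 3.58.1 (R 4.3.3) with a mean-variance trend over all 16 arrays. Stage and superovulation entered, superovulation as a separate term for MII to early 2-cell, late 2-cell to 8-cell, and morula with blastocyst (5 residual degrees of freedom) or for morula and blastocyst singly (4 residual degrees of freedom). P-values were adjusted by Benjamini and Hochberg over all tested rows. Median standard errors were 0.208 log2 for both stages together and 0.39 log2 for blastocyst against morula. These p-values rest on the spread between stages, since no stage was replicated. Housekeeping centring set the mean of 10 housekeeping genes equal on all arrays.

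Members and gene lists were chosen with earlier results of these data known. Named genes were protein-coding, called rows with the same sign at both stages, called rows 2-fold at 1 stage only (up to 6 a direction) or 2-fold in opposite directions, and list members. Lamc1, Dsp and Srebf2 are also in lists. The brightest row stood for a gene.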

Additional observations from a re-analysis of the deposited data

Results flagged for a closer look

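The superovulation difference changed between morula and blastocyst, by limma's test of the change itself, for 30 named genes, and the values here are blastocyst minus morula differences on the log2 scale. Negative values were largest for Ndrg1 (-5.21), Nxf7 (-5.07), Slc15a2 (-4.32), Slc7a8 (-4.30), Adh1 (-4.03), Lcp1 (-3.52), Gulp1 (-3.52), Myof (-3.32) and the glycosyltransferase B3gnt5 (-3.08). They were smaller for Aldh18a1 (-2.96), Dmkn (-2.86), the natriuretic peptide receptor Npr2 (-2.76), the protease Tmprss2 (-2.73), P2rx3 (-2.72), Blnk (-2.60), Serpinh1 (-2.42), Prss32 (-2.28), Klk7 (-2.24), Epn3 (-2.14), Grik3 (-1.97), the trophoblast factor Elf5 (-1.94) and Sema3b (-1.84). All 22 had a lower blastocyst signal on the superovulated array.

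Positive values belonged to Lrp2 (4.93), Magea3 (4.30), Serpinb9b (4.06), Trp53bp2 (3.78), Serpinb6c (3.64), Rhox5 (3.52), Magea8 (3.14) and Nynrin (2.19). All 8 had a lower morula signal on the superovulated array, and Magea3 and Magea8 belong to a multigene family whose copies may share probes.

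The hybridisation control rows, which no comparison used, were brighter on the superovulated arrays, by a mean of 0.69 log2 at morula and 0.44 log2 at blastocyst over 4 rows. Their part in the gene differences was not tested.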

How the results depend on the processing

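With 1 array for each stage and background, every call depends on the spread between other stages. The 13 calls for both stages together became 0 in a plain analysis of variance and from the late 2-cell to blastocyst arrays alone, 2 from the 4 arrays alone (none of the 13), 5 over all non-control rows, 1 with array weights and 103 after housekeeping centring (63 higher and 40 lower). They ranged from 0 to 105 when 1 stage pair was left out. The 2 calls against earlier stages were replaced by 2 other rows in the analysis of variance and over all non-control rows, and became 0 without the mean-variance trend, 1 with array weights, 32 after cyclic loess, 31 after housekeeping centring and 0 to 75 without 1 stage pair. The 35 calls for blastocyst against morula became 0 in the analysis of variance and from the late 2-cell to blastocyst arrays alone, 253 after housekeeping centring and 18 to 34 without 1 stage pair. Rows 2-fold at both stages numbered 983 at a 1.5-fold and 15 at a 3-fold limit, those at morula only 3546, 300 and, after housekeeping centring, 2297, and those at blastocyst only 2126 and 119. Of the 13 calls, 11 were kept after cyclic loess and 8 after housekeeping centring, and of the 35 calls 25 and 32. No called named gene changed the sign of its difference. The list medians after cyclic loess and housekeeping centring were added after seeing the data. The causes were not tested. All fits paired the arrays within a stage, and no replicate number could be used as a block, since the labels give none.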
